A study of Rattus norvegicus with 23 samples.

Results

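Pyruvate entry into the citrate cycle was examined through 10 genes selected by name from the 30452 genes of the rat count table. They encode the 4 pyruvate dehydrogenase kinases (Pdk1, Pdk2, Pdk3 and Pdk4), both catalytic pyruvate dehydrogenase phosphatases (Pdp1 and Pdp2), both subunits of the dehydrogenase itself (Pdha1 and Pdhb) and both subunits of the mitochondrial pyruvate carrier (Mpc1 and Mpc2). The list was made with earlier results on the pH changes of Pdk4 known, so its values are given as a description without a test. All 10 genes passed the filter on low counts, which left 14777 genes for testing.

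Pyruvate formed in glycolysis crosses the inner mitochondrial membrane through the carrier built from Mpc1 and Mpc2. The pyruvate dehydrogenase complex then turns it into acetyl-CoA, the fuel of the citrate cycle. The kinases phosphorylate the alpha subunit (Pdha1) and switch the complex off, and the phosphatases remove the phosphate and switch it on again. In kidney tubule cells this switch is one of the points where fat and glucose oxidation compete, and Pdk4 is known as the kinase that rises in fasting.

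The data were poly(A) RNA sequencing counts of 23 samples from a pair of normal rat kidney lines, NRK-52E, labelled as epithelial cells, and NRK-49F, labelled as fibroblasts. All samples went through 24 h of serum-free medium, followed by 48 h in DMEM at pH 7.4, or at pH 6.0 after addition of HCl, with no other agent. NRK-52E cells gave 6 samples at each pH, and NRK-49F cells gave 6 samples at pH 7.4 and 5 at pH 6.0. The labels place them in sample groups, 1 and 3 for NRK-52E and 4 and 6 for NRK-49F, and do not say what these are or whether samples came from separate cultures, so the p-values measure the spread between these samples, which may be technical. Levels are fragments per 1000000 (FPM), that is read pairs assigned to a gene per 1000000 assigned read pairs after scaling for library composition. They are not corrected for gene length, so they are compared between samples and not between genes.

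Total counts ran from 16412564 to 34250535 per sample. Of the 8 epithelial markers found in the table, 7 had at most 12 counts in any NRK-52E sample (Cdh1, Epcam, Krt18, Cldn4, Cldn7, Esrp1 and Grhl2), and the one that was expressed, Krt8, was higher in NRK-49F than in NRK-52E cells. These 7 markers were therefore nearly absent from the counts of the line labelled epithelial. Krt19 and Ocln, also on the list of 10, were not matched by symbol. The lines are called here by their names. Several of the 10 fibroblast markers separated the lines, with Pdgfra at 306 FPM in NRK-49F and 1.83 FPM in NRK-52E samples of pH 7.4, although Col3a1 was higher in NRK-52E cells. The summed fibroblast markers lay between 4942 and 8114 FPM in NRK-52E samples at pH 7.4 and between 1832 and 3107 FPM at pH 6.0, and in NRK-49F samples between 10698 and 13666 FPM at pH 7.4 and between 7379 and 9890 FPM at pH 6.0. Nearly all of the NRK-52E sum came from Col3a1, whose mean fell from 6149 FPM to 2402 FPM at the lower pH. The next highest means of this line at pH 7.4 were 65.8 FPM for Postn and 58.1 FPM for Col1a1. The sum in NRK-52E samples therefore describes Col3a1 rather than the list as a whole. The part of the fibroblast markers in the pH changes given here was not tested.

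Among the libraries at pH 7.4, 1 of each line carried transcripts typical of the other line. The libraries at pH 6.0 were not examined, since low levels in them were part of the rule that picked the genes. For 260 genes with at least 5 FPM in NRK-52E cells at pH 7.4 and less than 2% of that in NRK-49F cells at pH 6.0, a rule set after the data were seen, NRK-49F replicate A051 at pH 7.4 held a median of 4.41% of the NRK-52E level. The other 5 NRK-49F samples at pH 7.4 held medians of 0.197% to 1.20%, and A051 was the highest of the 6 for 225 of the 260 genes. In the opposite direction, NRK-52E replicate A021 at pH 7.4 held a median of 1.77% of the NRK-49F level over 411 genes, and the other 5 samples 0% to 0.745%. Pdk4 in NRK-49F cells is given without A051 as well, and Ldhb in NRK-52E cells without A021. The pH changes of other listed genes in which either library was highest, such as Pdk1 in NRK-52E cells, are not given without it.

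Pdk4, the kinase of the fasted state, was the member that separated the lines most. In NRK-52E cells at pH 7.4 it had 11.3, 9.52, 11.3, 11.5, 9.71 and 8.21 FPM in replicates A021, A022, A023, A033, A034 and A035. At pH 6.0 it had 22.9, 26.9, 21.3, 31.0, 34.3 and 34.4 FPM in replicates A024, A025, A026, A036, A037 and A038. Every NRK-52E sample at pH 6.0 lay above every sample at pH 7.4, the mean was 2.78-fold higher, and the fitted log2 fold change was 1.47 (SE 0.25). The 3 acid samples of sample group 3 (A036, A037 and A038) were all above the 3 of sample group 1, with fitted changes of 1.84 in group 3 and 1.22 in group 1. The number of cells that express a transcript and its amount per cell cannot be told apart in such bulk samples.

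NRK-49F cells had almost no Pdk4. The counts were 9, 2, 5, 31, 12 and 1 in replicates A039, A040, A041, A051, A052 and A053 at pH 7.4, and 0, 2, 4, 2 and 2 in A042, A043, A054, A055 and A056 at pH 6.0. A051 alone held 31 of the 60 counts at pH 7.4, at 1.17 FPM against at most 0.400 FPM in the other 5 samples, and it is the library with the NRK-52E transcripts, whose part in these counts was not tested. The pooled rate of counts at pH 6.0 was 0.216 of that at pH 7.4, and 0.363 without A051. The fitted log2 fold change was -2.12 (SE 0.62), and -1.39 without A051. The levels at both pH values overlapped, and Pdk4 did not pass the count filter when NRK-49F samples were fitted alone, so its entry in this line rests on counts in NRK-52E cells. At pH 7.4 the mean level in NRK-52E cells was 25.96-fold that in NRK-49F cells, with a fitted log2 difference of 4.60, and 5.33 without A051.

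**Figure D1:**
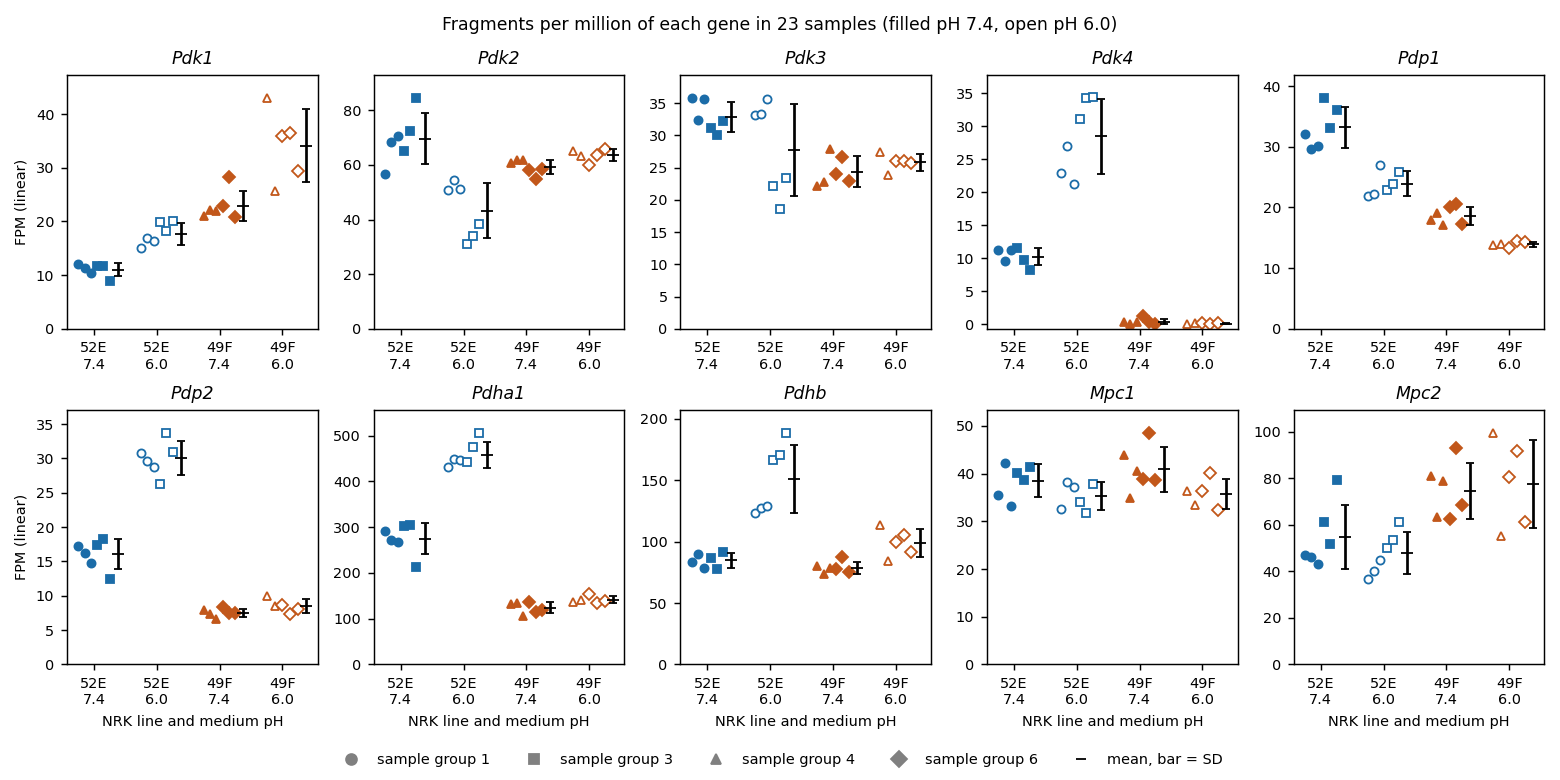
Level of each of the 10 genes (FPM, linear axis) in all 23 samples by cell line and pH, with 1 point per sample, shapes for sample groups, and the mean with its SD beside each group. Pdk4 lies between 21.3 and 34.4 FPM in NRK-52E cells at pH 6.0 and near 0 in NRK-49F cells, and Pdk2 and Pdk3 in NRK-52E cells at pH 6.0 fall apart by sample group.

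The other 3 kinases differed from each other. Pdk1, a kinase known as a target of the hypoxia-inducible factor, rose in both lines. In NRK-52E cells Pdk1 went from 8.83 to 12.03 FPM across the samples at pH 7.4 (median 11.5) to 14.98 to 20.1 FPM at pH 6.0 (median 17.5), without overlap. The log2 fold change was 0.69 (SE 0.12, adjusted p = 2.53e-05). In NRK-49F cells Pdk1 had 20.9, 22.2, 21.9, 22.9, 28.3 and 20.9 FPM at pH 7.4 and 43.1, 25.7, 35.8, 36.6 and 29.3 FPM at pH 6.0. The groups overlapped, since A052 at pH 7.4 (28.3 FPM) was above A043 at pH 6.0 (25.7 FPM), and the log2 fold change was 0.58 (SE 0.12, adjusted p = 0.000773). The pH changes of Pdk1 differed between the lines by 0.11 on the log2 scale (SE 0.17, adjusted p = 0.65). Its level was lower in NRK-52E than in NRK-49F cells at pH 7.4 by a log2 difference of -1.05 (adjusted p = 2.52e-08), and in order of level the 4 conditions were NRK-52E at pH 7.4, NRK-52E at pH 6.0, NRK-49F at pH 7.4 and NRK-49F at pH 6.0.

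Pdk2, the kinase found in most tissues, fell in NRK-52E cells and did not pass the test in NRK-49F cells. In NRK-52E cells it had 56.7, 68.5, 70.7, 65.0, 72.3 and 84.6 FPM at pH 7.4 and 50.9, 54.3, 51.03, 30.9, 34.1 and 38.2 FPM at pH 6.0. The groups did not overlap, and the log2 fold change was -0.69 (SE 0.12, adjusted p = 1.71e-05). In NRK-49F cells the range was 54.999 to 61.7 FPM at pH 7.4 and 60.01 to 65.7 FPM at pH 6.0, with a log2 fold change of 0.10 (adjusted p = 0.573). The changes of Pdk2 differed between the lines by -0.79 (adjusted p = 0.00052). At pH 7.4 the lines differed by 0.23 (adjusted p = 0.0746), and without A021 by 0.29 (adjusted p = 0.0327).

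Pdk3, the remaining kinase, passed the test of the full fit in neither line. Its range in NRK-52E cells was 30.1 to 35.9 FPM at pH 7.4 and 18.6 to 35.6 FPM at pH 6.0, with a log2 fold change of -0.25 (SE 0.12, adjusted p = 0.0859). With the sample group as a block it passed there (-0.28, adjusted p = 0.0113). In NRK-49F cells the log2 fold change of Pdk3 was 0.08 (adjusted p = 0.675), over ranges of 22.1 to 27.9 and 23.9 to 27.5 FPM. The line difference at pH 7.4 was 0.43 (adjusted p = 0.00328), with Pdk3 higher in NRK-52E cells.

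The values of Pdk2 and Pdk3 at pH 6.0 differed between the sample groups of NRK-52E cells. Within sample group 1 the log2 fold change of Pdk2 was -0.24 (adjusted p = 0.0348), and within sample group 3 it was -1.02 (adjusted p = 0.000106). Pdk3 gave 0.05 within sample group 1 (adjusted p = 0.597) and -0.46 within sample group 3 (adjusted p = 0.0091). With the scaling of the full fit the mean level of Pdk3 in group 1 was 34.6 FPM at pH 7.4 and 34.05 FPM at pH 6.0, so the sign of its change turned with the scaling of the separate fit. Of all genes tested in these separate fits, 61.4% passed in group 1 and 60.7% in group 3. In a contrast chosen after the data were seen, the pH change of group 3 minus that of group 1 was -0.78 for Pdk2 (adjusted p = 0.00127) and -0.52 for Pdk3 (adjusted p = 0.0278). It was 0.44 for Pdhb (adjusted p = 0.056) and 0.61 for Pdk4. Thus 2 of the 9 members other than Pdk4 passed this contrast, where 10.6% of all tested genes did. The acid samples of group 3 were the ones with lower Pdk2 and Pdk3 and higher Pdk4 and Pdhb.

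**Figure D2:**
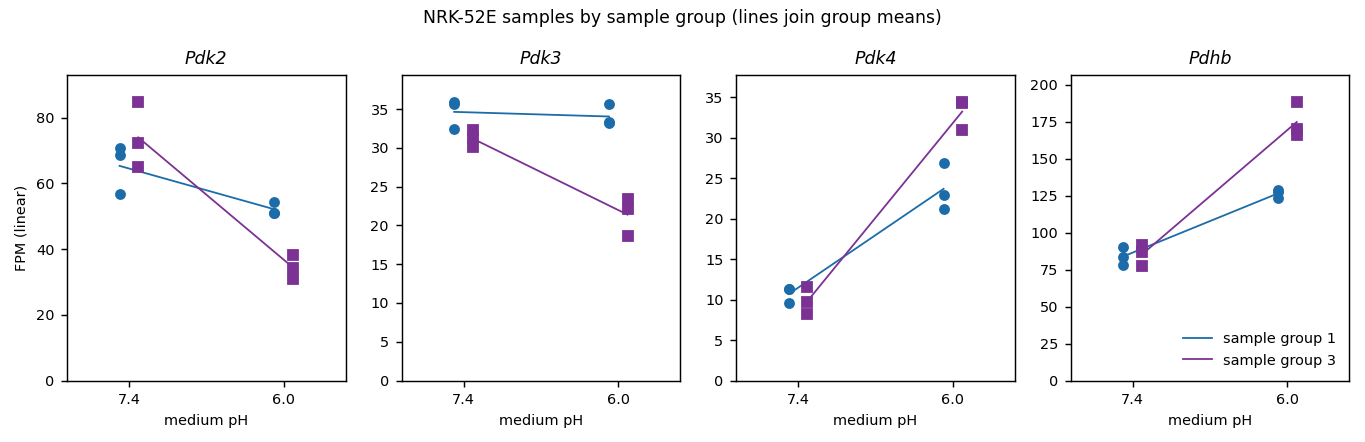
Levels of Pdk2, Pdk3, Pdk4 and Pdhb (FPM, linear axis) in the 12 NRK-52E samples at pH 7.4 and pH 6.0, with points for samples and lines joining the means of each sample group. For Pdk2 the 3 acid samples of sample group 3 lie between 30.9 and 38.2 FPM and those of sample group 1 between 50.9 and 54.3 FPM.

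The kinase transcripts were also summed and their shares compared. The summed level of the 4 kinases in NRK-52E cells was 124 ± 6.42 FPM over the 6 samples of pH 7.4 and 117 ± 10.9 FPM over the 6 of pH 6.0 (SD), with overlapping ranges. For NRK-49F cells this sum was 107 ± 3.66 FPM (n = 6) and 124 ± 8.30 FPM (n = 5), and these ranges did not overlap. Of the read pairs assigned to the 4 kinases in NRK-52E cells, Pdk4 took 8.33% ± 1.36 at pH 7.4 and 24.7% ± 6.69 at pH 6.0, and Pdk2 took 56.1% ± 4.69 and 36.5% ± 5.43 (SD over 6 samples each). Pdk1 went from 8.95% ± 1.38 to 15.3% ± 2.93 in the same samples. In NRK-49F cells Pdk2 held 55.5% ± 3.12 (n = 6) and 51.6% ± 3.44 (n = 5), and Pdk4 at most 1.11% in any sample. These are shares of read pairs and not of molecules, since longer transcripts give more read pairs.

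**Figure D3:**
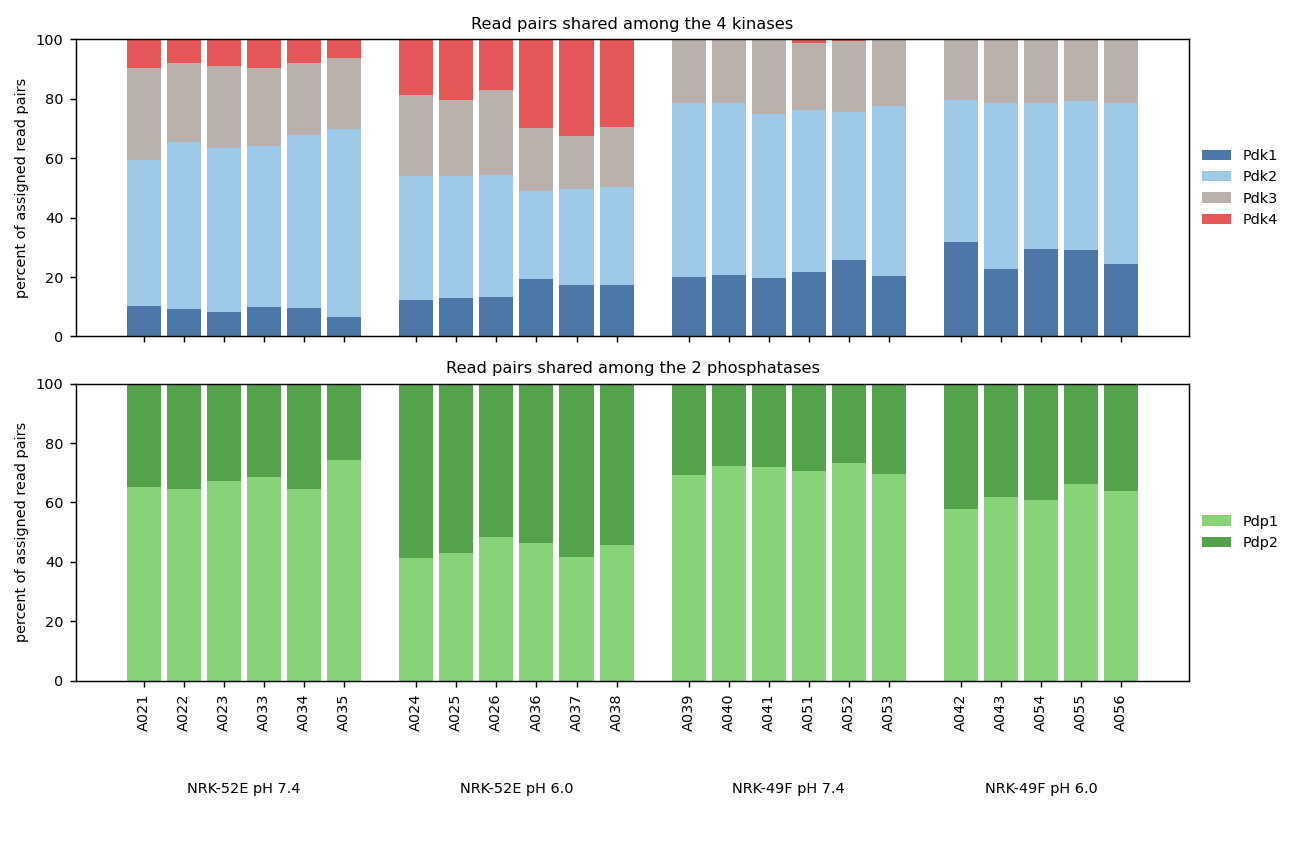
Percent of assigned read pairs held by each of the 4 kinases (upper panel) and each of the 2 phosphatases (lower panel) in all 23 samples, with 1 stacked bar per sample. The Pdk4 part widens from a mean of 8.33% to 24.7% in NRK-52E cells at pH 6.0, and the Pdp2 part from 32.6% to 55.6%.

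The promoter bases of 3 kinases are shown because these genes moved in different ways, Pdk1 up in both lines, Pdk2 down in NRK-52E cells, and Pdk4 up in NRK-52E cells. They come from RefSeq on GRCr8 and end at the last base before the gene's annotated start. Capitals mark the letters of 4 motifs searched on both strands, the forkhead motif GTAAANA, the hypoxia response core ACGTG, the nuclear receptor element AGGTCA and the CCAAT box.
Pdk1, chr3:77113264-77113463, plus strand: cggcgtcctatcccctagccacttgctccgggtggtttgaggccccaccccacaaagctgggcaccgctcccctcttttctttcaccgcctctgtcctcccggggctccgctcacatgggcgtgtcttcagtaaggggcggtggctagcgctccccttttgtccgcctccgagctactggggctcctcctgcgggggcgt
Pdk2, chr10:80483989-80484162, minus strand: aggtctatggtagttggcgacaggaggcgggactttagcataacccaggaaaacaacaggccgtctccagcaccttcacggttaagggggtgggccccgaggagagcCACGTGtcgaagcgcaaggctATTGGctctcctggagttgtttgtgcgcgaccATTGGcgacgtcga
Pdk4, chr4:34568330-34568579, minus strand: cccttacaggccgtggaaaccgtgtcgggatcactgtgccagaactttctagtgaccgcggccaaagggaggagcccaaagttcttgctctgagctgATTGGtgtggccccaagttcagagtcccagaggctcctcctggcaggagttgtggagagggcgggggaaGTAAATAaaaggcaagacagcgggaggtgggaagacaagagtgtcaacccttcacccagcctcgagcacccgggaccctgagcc
The Pdk4 stretch held 1 forkhead match, which starts 84 bases before the gene, and 1 CCAAT box. A forkhead match was found in 11.6% and a CCAAT box in 34.02% of the 33469 promoter windows over the same 250 bases. In Pdk2 the core matched 2 times, on opposite strands of one palindrome, CACGTG, and the CCAAT box was found at 2 places. In the first 174 bases of each window, which begins 250 bases before its start, 11.3% of all windows held the core. A CCAAT box was there in 25.03%. These bases stop short of the window's start, whereas the Pdk2 bases end at its gene's start, so the positions differ. None of the 4 motifs, as spelled here, was found in the 200 bases of Pdk1. The hypoxia response core was searched only as ACGTG. The spelling GCGTG, which the Pdk1 stretch holds, was not searched for or counted over all windows. Single motifs occurred in the first 200 bases of 9.77% to 28.8% of all windows, with the same limit on positions. These matches describe letters, and no binding was measured. Of the 10 members, 8 had a promoter window.

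The phosphatases moved in opposite directions in NRK-52E cells. Pdp2, the phosphatase known to respond to insulin, had 12.4 to 18.3 FPM (median 16.7) at pH 7.4 and 26.3 to 33.6 FPM (median 30.2) at pH 6.0. Its log2 fold change was 0.90 (SE 0.098, adjusted p = 2.99e-08), without overlap. Pdp1, the calcium-stimulated phosphatase, had 29.6 to 38.1 FPM (median 32.6) at pH 7.4 and 21.8 to 26.96 FPM (median 23.4) at pH 6.0, a log2 fold change of -0.47 (SE 0.080, adjusted p = 1.93e-05). Again the groups did not overlap.

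In NRK-49F cells Pdp1 also fell. It had 17.8, 19.1, 17.04, 20.0, 20.6 and 17.3 FPM at pH 7.4 and 13.8, 13.9, 13.4, 14.5 and 14.2 FPM at pH 6.0. The log2 fold change was -0.42 (SE 0.085, adjusted p = 0.000585), and Pdp1 was the only member whose levels at both pH values did not overlap in this line. Pdp2 had a log2 fold change of 0.17 in NRK-49F cells (adjusted p = 0.242), over ranges of 6.63 to 8.37 and 7.36 to 10.0 FPM. The pH changes differed between the lines for Pdp2, by 0.73 (adjusted p = 0.000277), while for Pdp1 the difference was -0.05 (SE 0.12, adjusted p = 0.775).

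The shares of the phosphatases were compared in the same way. Pdp2 took 32.6% ± 3.83 of the read pairs of both phosphatases at pH 7.4 and 55.6% ± 2.84 at pH 6.0 over the NRK-52E samples (SD, n = 6 per pH). For NRK-49F cells its share was 28.8% ± 1.57 (n = 6) and 37.9% ± 3.20 (n = 5). At pH 7.4 both were higher in NRK-52E than in NRK-49F cells, Pdp1 by a log2 difference of 0.83 (adjusted p = 1.8e-09) and Pdp2 by 1.09 (adjusted p = 8.61e-10).

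The genes of the dehydrogenase itself, Pdha1 for the alpha subunit that carries the phosphorylation sites and Pdhb for the beta subunit, both rose in NRK-52E cells. Pdha1 went from a range of 213 to 305 FPM (median 282) to 430.4 to 505 FPM (median 447), with a log2 fold change of 0.73 (SE 0.082, adjusted p = 4.83e-08). Pdhb had 83.5, 90.4, 78.3, 86.7, 77.4 and 92.0 FPM at pH 7.4 and 124, 127, 129, 166, 171 and 188 FPM at pH 6.0. Neither gene overlapped between the pH values, and the log2 fold change of Pdhb was 0.83 (SE 0.099, adjusted p = 1.23e-07).

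In NRK-49F cells Pdhb rose less, from 73.3 to 87.6 FPM at pH 7.4 to 84.3 to 114 FPM at pH 6.0, with overlap. Its log2 fold change was 0.33 (SE 0.10, adjusted p = 0.0189), and without A042, the highest acid sample, 0.27 (adjusted p = 0.0658). Pdha1 had a log2 fold change of 0.18 in this line (adjusted p = 0.116), over ranges of 107 to 137 and 134 to 154 FPM. The changes were larger in NRK-52E than in NRK-49F cells by 0.55 for Pdha1 (adjusted p = 0.000635) and 0.51 for Pdhb (adjusted p = 0.00635). Pdha1 was also higher in NRK-52E cells at pH 7.4, by a log2 difference of 1.15 (adjusted p = 8.32e-12), and for Pdhb the lines differed by 0.10 (adjusted p = 0.359).

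Read pairs of Pdha1 can also match Pdha1l1, a gene on chromosome 16 annotated as Pdha1-like, and multi-mapping pairs were counted, so the split between both genes is uncertain. Pdha1l1 had log2 fold changes of 0.49 in NRK-52E (adjusted p = 2.53e-06) and 0.27 in NRK-49F cells (adjusted p = 0.00923). With the counts of both genes summed, the changes were 0.69 and 0.20.

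The mitochondrial pyruvate carrier passed the test in neither line. In NRK-52E cells Mpc1 had 33.2 to 42.2 FPM at pH 7.4 and 31.7 to 38.3 FPM at pH 6.0, a log2 fold change of -0.13 (SE 0.085, adjusted p = 0.21). In NRK-49F cells it was -0.20 (adjusted p = 0.105). Mpc2 had log2 fold changes of -0.20 (SE 0.16, adjusted p = 0.308) in NRK-52E and 0.06 (adjusted p = 0.836) in NRK-49F cells. The spread of Mpc2 was wide, with 43.3 to 79.4 FPM in NRK-52E cells at pH 7.4 and 55.3 to 99.2 FPM in NRK-49F cells at pH 6.0. In NRK-52E cells it followed the sample groups at both pH values. Group 1 had 43.3 to 46.9 FPM at pH 7.4 and 36.5 to 44.8 FPM at pH 6.0. Group 3 had 51.7 to 79.4 and 50.1 to 61.3 FPM. At pH 7.4 Mpc2 was lower in NRK-52E cells by a log2 difference of -0.45 (adjusted p = 0.0176), with overlapping levels, and Mpc1 differed by -0.09 (adjusted p = 0.366).

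**Figure D4:**
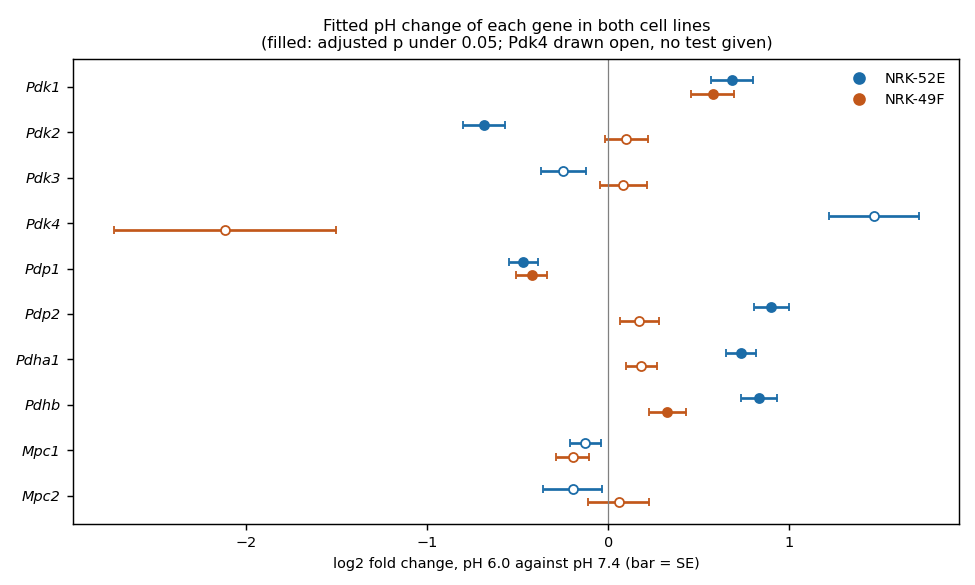
Fitted log2 fold change of each member at pH 6.0 against pH 7.4 (horizontal axis, bar = SE) in NRK-52E and NRK-49F cells, filled where the adjusted p passed 0.05 and with Pdk4 open, since no test is given for it. Pdk1 and Pdp1 lie close together in both lines (0.69 and 0.58, -0.47 and -0.42), and Pdk2, Pdp2, Pdha1 and Pdhb lie apart.

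Pdk4, chosen for these values, was left out of the counts of tests over the list. Of the other 9 members, 6 passed the test in NRK-52E cells, 4 higher and 2 lower, where 24.7% of all tested genes were higher and 36.6% lower. The same 6 had levels that did not overlap between the pH values, against 38.6% of all tested genes. In NRK-49F cells 3 of the 9 passed, 2 higher and 1 lower, where 14.5% of all genes were higher and 14.4% lower. Only 1 of them did not overlap there, against 20.6% of all genes. The difference between the pH changes of the lines passed for 4 of the 9, where 41.4% of all genes passed, and the difference between the lines at pH 7.4 for 6, where 68.8% did. The median log2 fold change of all 10 members was 0.28 in NRK-52E and 0.09 in NRK-49F cells, of the 9 without Pdk4 -0.13 and 0.10, and of all tested genes -0.12 and 0.00. Within NRK-52E cells Pdk1, Pdp1, Pdp2, Pdha1 and Pdhb passed in each sample group alone, with log2 fold changes of 0.59, -0.29, 0.97, 0.75 and 0.67 in group 1 and 0.93, -0.48, 1.00, 0.87 and 1.11 in group 3 (highest adjusted p = 0.0273). Within NRK-49F cells, group 4 with 2 acid samples gave 0.66 for Pdk1 (adjusted p = 0.122), -0.38 for Pdp1 (adjusted p = 0.203) and 0.35 for Pdhb (adjusted p = 0.229). Group 6 gave 0.49 (adjusted p = 0.056), -0.47 (adjusted p = 0.0303) and 0.29 (adjusted p = 0.086) for the same genes. Of all genes tested in the fits of single sample groups, 61.4% passed in group 1, 60.7% in group 3, 8.70% in group 4 and 16.0% in group 6.

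The remaining subunits and cofactor enzymes of the complex were counted from a list of 7 genes. Of these, 4 rose and 2 fell in NRK-52E cells, with a median of 0.20, where 24.7% of all tested genes rose and 36.6% fell. Dlat, the acetyltransferase core, rose by 0.55 (adjusted p = 1.01e-06), Pdpr, the regulatory subunit of the phosphatase, by 0.50 (adjusted p = 0.000754), Pdhx, the component that binds Dld, by 0.34 (adjusted p = 0.0158), and Dld, the lipoamide dehydrogenase, by 0.20 (adjusted p = 0.0353). Lipt1, which transfers lipoic acid to the enzymes, fell from 2.67 to 1.12 FPM, a log2 fold change of -1.25 (adjusted p = 3.2e-05). Lias, lipoic acid synthase, had a log2 fold change of -0.38 in NRK-52E (adjusted p = 0.00931) and 0.38 in NRK-49F cells (adjusted p = 0.0245), where it was the one gene of the 7 that passed, against 14.5% of all genes higher and 14.4% lower. Lipt2 had 0.07 (adjusted p = 0.693) in NRK-52E cells.

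The branched-chain ketoacid dehydrogenase, a related complex with its own kinase and phosphatase, was compared as a neighbour. In NRK-52E cells 3 of 4 tested genes rose and none fell, where 24.7% of all genes rose and 36.6% fell. Ppm1k, its phosphatase, rose by 1.02 (adjusted p = 0.00079), Bckdha by 0.79 (adjusted p = 1.67e-08) and the core Dbt by 0.65 (adjusted p = 5.23e-05), while Bckdhb had -0.36 (adjusted p = 0.064). None of the 4 passed in NRK-49F cells, where their range was -0.21 to 0.18 and 14.5% of all genes rose and 14.4% fell.

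Genes of other pyruvate routes moved in both directions. Of 10 tested genes, 3 rose and 5 fell in NRK-52E cells, and 5 rose and 1 fell in NRK-49F cells. These counts, and those of the lists that follow, are read beside all tested genes, of which 24.7% rose and 36.6% fell in NRK-52E, and 14.5% rose and 14.4% fell in NRK-49F cells. Pc, pyruvate carboxylase, which makes oxaloacetate from pyruvate, went from 12.5 ± 1.53 to 50.4 ± 7.16 FPM among NRK-52E samples (SD, n = 6 per pH), and its log2 fold change was 2.01 (adjusted p = 3.72e-13). Ldhb, a lactate dehydrogenase subunit, had -2.25 (adjusted p = 0.0131) in NRK-52E cells, but its level there was at most 1.04 FPM, with A021 highest, against 55.5 FPM in NRK-49F cells. A021 held 37 of the 52 counts of Ldhb at pH 7.4, and without A021 the log2 fold change was -0.99 (adjusted p = 0.231). Ldha, the other main subunit, chosen after its values were seen, fell from 398 to 223 FPM in the same cells, with a log2 fold change of -0.83 (adjusted p = 3.06e-05). In NRK-49F cells Gpt2, the mitochondrial alanine transaminase, rose by 0.68 (adjusted p = 2.04e-07) and Me2, a malic enzyme, had -0.26 (adjusted p = 0.0336). Of 13 citrate cycle genes, 5 rose and 3 fell in NRK-52E cells, with Idh3a (isocitrate dehydrogenase) at -0.79 (adjusted p = 9.75e-10). In NRK-49F cells 4 rose and none fell, led by Suclg1, a succinate-CoA ligase subunit, at 0.58 (adjusted p = 0.00018).

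Factors known to act on Pdk genes and their known targets were counted next, from lists chosen with earlier results known. Of 7 tested factors, 2 rose and 1 fell in NRK-52E cells, with Ppard at 0.63 (adjusted p = 7.47e-07) and Nr3c1, the glucocorticoid receptor, at -0.53 (adjusted p = 0.000453). In NRK-49F cells Ppard was the one that passed, at 0.69 (adjusted p = 1.58e-06). Targets of the fatty acid receptors (PPAR) numbered 5 higher and 3 lower of 11 in NRK-52E cells, with Acadl at 1.22 (adjusted p = 3.06e-11). In NRK-49F cells 6 of the 11 rose and 0 fell, led, among those with a mean of at least 5 FPM, by Plin2 at 1.70 (adjusted p = 1.38e-10).

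Of 10 FOXO targets, 1 rose and 4 fell in NRK-52E cells, with Txnip at 0.35 (adjusted p = 0.00193) and Sesn3 at -0.87 (adjusted p = 0.00263). In NRK-49F cells 2 rose and 3 fell, with Txnip at 2.31 (adjusted p = 2.48e-14) and Klf15 at -0.83 (adjusted p = 2.63e-07). Of 11 HIF targets, 6 rose and 4 fell in NRK-52E cells, with Pfkfb3 at 1.15 (adjusted p = 4.56e-06), and 5 rose and 0 fell in NRK-49F cells, led by Vegfa at 1.46 (adjusted p = 3.9e-09). Egln3, the HIF target with the lowest fitted change in NRK-52E cells, had 27 counts over the samples of pH 7.4, 20 of them in A021, and 0 in all 6 acid samples, so no fold change is given for it. It is still among the 4 that fell. Ndrg1, also on this list, had 262 counts in NRK-52E cells at pH 7.4, 197 of them in A021, and averaged 402 FPM in NRK-49F cells at pH 7.4. The number of HIF targets that fell is not given without A021. Of 6 glucocorticoid targets, 2 rose and 3 fell in NRK-52E cells, with Klf9 at 1.49 (adjusted p = 9.15e-06) and Sgk1 at -1.09 (adjusted p = 8.58e-11). In NRK-49F cells 1 rose and 1 fell, with Sgk1 at -0.49 (adjusted p = 5.78e-05).

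**Figure D5:**
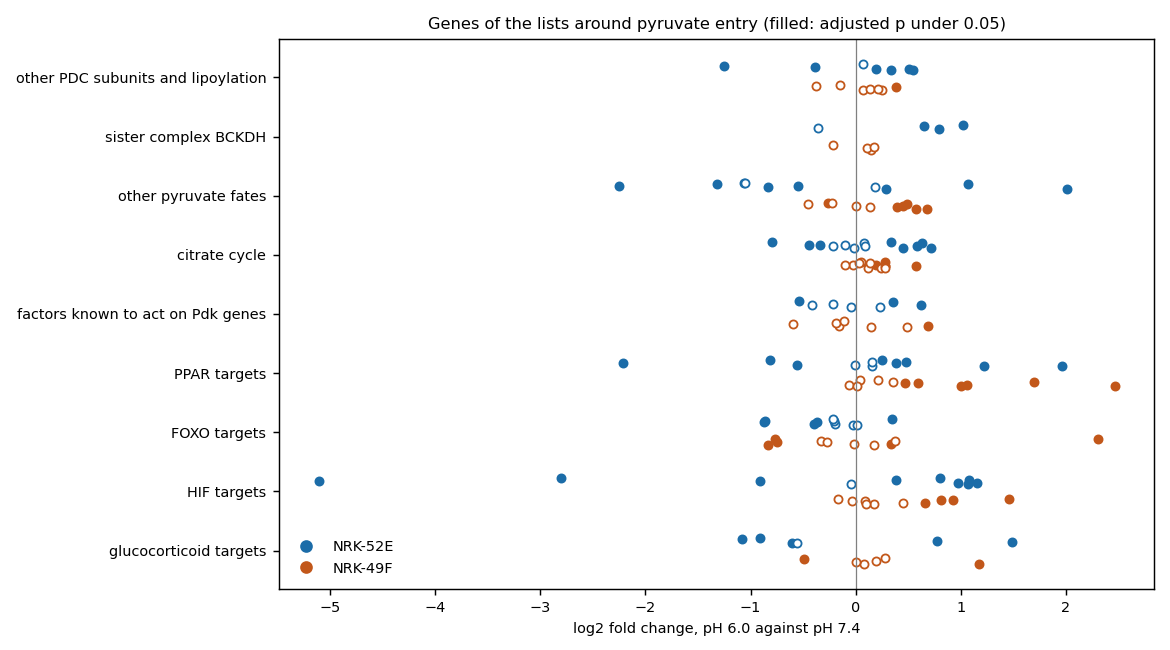
Fitted log2 fold change at pH 6.0 against pH 7.4 (horizontal axis) of each tested gene in the 9 lists around pyruvate entry (rows), with 1 point per gene and line, filled where the adjusted p passed 0.05. In the list of the branched-chain complex 3 of 4 points are filled for NRK-52E cells and none for NRK-49F cells.

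Genes with a pattern like that of Pdk4 were ranked by the root mean square difference of centred log2 FPM over all 23 samples, among 11430 genes. The 5 closest were Wfdc6a (0.416), Naaa (0.517), Rimklb (0.616), Clca4l (0.654) and Sox13 (0.659), where the median of all candidates was 3.18. Naaa, a lysosomal amidase, averaged 8.74 FPM at pH 7.4 and 29.0 FPM at pH 6.0 over NRK-52E samples, and in the other line 0.498 and 0.130 FPM. Each of the 5 peaked among the NRK-49F samples in A051, where Pdk4 was also highest. Without A051 the 5 closest were the same genes, at 0.425 to 0.666. The distance is set largely by the gap between the lines.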

How the data were processed

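The authors deposited a table of raw counts, whole numbers of read pairs per rat gene, made with HISAT2 (2.1.0) and featureCounts with multi-mapping pairs included. The strand setting is not given in the sources used here, so a gene and an overlapping antisense gene cannot be told apart. The build is rn6 in the submitters' processing notes and a later rat build in the study's methods. Of its sample columns 23 matched a label, and 13 were not used. Genes were filtered with filterByExpr (minimum count 10), scaled with TMM and tested in edgeR (4.0.16, R 4.3.3) by the quasi-likelihood test in 1 fit of 4 conditions over 23 samples, with Benjamini-Hochberg adjustment over 14777 genes and a threshold of 0.05. Adjusted p-values come from this fit unless a sample group, a block, a contrast of sample groups or a left-out sample is named, which were refitted with the same tool. The SE is the log2 fold change divided by the root of its F value. The script was tested on simulated data. Alternatives were RLE scaling, no filter, DESeq2 (1.42.0), the sample group as a block or apart, each line alone, and leaving out each sample. Those added after the data were seen were the summed counts of Pdha1 and Pdha1l1, the contrast of sample groups 3 and 1, 2 genes without A021, the likeness to Pdk4 without A051, and counts of members without Pdk4. The members and lists were chosen with earlier results of these data known. All 10 members are named, with, from each other list, the called genes of largest rise and fall at a mean of at least 5 FPM. Some genes that this rule names are not reported here. Bckdk, Cd36, Dusp1, Krt19 and Ocln were not matched by symbol. Total counts of 16412564 to 34250535 limit the precision of genes at a few counts, as for Pdk4 in NRK-49F cells. Promoters are from RefSeq (GRCr8), and figures were drawn with matplotlib (3.10.9).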

Additional observations from a re-analysis of the deposited data

Results flagged for a closer look

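Of 40 sets of samples (10 genes in 4 conditions), 2 held a sample far from the rest by Dixon's criterion, and chance flags about 1 in 20 such sets. In NRK-49F cells at pH 7.4 replicate A052 had 28.3 FPM of Pdk1, with the next sample at 22.9 FPM. In the same condition replicate A051 had 1.17 FPM of Pdk4, with the next at 0.400 FPM, and it is the library that held transcripts typical of NRK-52E cells at a median of 4.41%. The part of these transcripts in the Pdk4 value was not tested.

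The pH change differed between the lines for 4 members with a test (edgeR, adjusted p from 0.000277 to 0.00635). The log2 difference, NRK-52E minus NRK-49F, was -0.79 for Pdk2, 0.73 for Pdp2, 0.55 for Pdha1 and 0.51 for Pdhb. Within NRK-52E cells the pH change differed between sample groups 3 and 1 by -0.78 for Pdk2 and -0.52 for Pdk3, in a contrast chosen after the data were seen.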

How the results depend on the processing

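No paired analysis was possible because the replicate codes are not shared between the groups. The counts given here leave out Pdk4, for which no test is given. They were 6 of 9 members in NRK-52E cells (24.7% of all tested genes higher and 36.6% lower) and 3 in NRK-49F cells (14.5% and 14.4%). The difference of the pH changes passed for 4 (41.4%), and the lines at pH 7.4 differed for 6 (68.8%). RLE scaling, no filter and DESeq2 gave equal counts. With the sample group as a block they were 7, 3, 5 and 6, the last setting group 1 against group 4. Within sample groups of NRK-49F cells fewer passed, each with fewer samples than the full fit. Group 4 (2 acid samples) gave 0 of 9, where 8.70% of all genes passed, and group 6 gave 1, where 16.0% did. Leaving out single samples gave 6 to 7 members in NRK-52E and 2 to 3 in NRK-49F cells. It gave 4 for the difference of the pH changes and 5 to 7 between the lines at pH 7.4. Shares of all genes in the other refits are not given. Directions turned only in values close to 0 that had not passed. The difference of the pH changes of Pdp1 was 0.0003045 under RLE scaling and 0.0081 in DESeq2. The line difference of Pdhb was -0.0011 with the sample group as a block, where it sets sample group 1 against sample group 4. Within sample group 1 Pdk3 and Mpc1 in NRK-52E cells gave 0.0546 and 0.0474. With the scaling of the full fit, group 1 went from 34.6 to 34.05 FPM for Pdk3 and from 37.02 to 36.1 FPM for Mpc1, so both signs turned with the scaling of the separate fit. Mpc2 in NRK-49F cells ranged from -0.0448 to 0.158 without single samples. Pdk3 in NRK-52E cells passed with the sample group as a block (adjusted p = 0.0113) and without A024, A025 or A026 in turn (lowest adjusted p = 0.0213). Mpc2 between the lines did not pass without A052 (adjusted p = 0.0514). Pdk1 and Pdhb in NRK-49F cells passed in neither sample group alone. The cause of the other shifts was not tested. Pdk4 in NRK-49F cells, at 0 to 31 counts, is limited by depth.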
